A study of Homo sapiens with 5 samples.

Results

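The genes described here encode the machinery that brings proteins into mitochondria and the chaperones and proteases that fold and clear them. They were chosen by name: protein-coding rows of the deposited count table whose symbol begins with TIMM or TOMM, together with a written list of further import, chaperone, protease and prohibitin genes. The rule found 50 genes among the 16677 rows of the table, 24 through the symbol and 26 from the list. It applied no measured value, but the members were chosen with earlier results of these data known. DNAJC15 was the single listed gene with no row. RNA was sequenced from HEK293 cells, a long-established line of human embryonic kidney origin, in basal culture. The 2 control libraries have the genotype WT and the 3 variant libraries have the genotype rs11607019, a T-to-C change that the series places in SIRT3, the gene of a mitochondrial deacetylase. The labels name no treatment, time, clone or batch and do not say whether the libraries are separate clones or repeated cultures, so every p-value measures only the spread between these libraries.

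Most mitochondrial proteins are made in the cytosol. They enter through the TOM complex of the outer membrane, and are then sorted to the outer membrane (SAM complex), the intermembrane space (MIA pathway), or the inner membrane and matrix (TIM22 and TIM23 complexes). In the matrix the chaperone mtHSP70, encoded by HSPA9, pulls the chain in, peptidases remove the targeting presequence, the HSPD1 and HSPE1 chaperonin folds the product, and ATP-dependent proteases remove what fails to fold. Several of these chaperones and proteases are classical markers of the mitochondrial unfolded protein response.

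Library totals ran from 17122569 to 17596084 counts, and Spearman correlations of log2 CPM (counts scaled to the library's total) between libraries from 0.978 to 0.989. SIRT3 stood at 28.9 and 29.3 CPM in control 1 and control 2 and at 26.5, 15.8 and 30.2 CPM in variant 1, variant 2 and variant 3, so variant 2 was the low library and the groups overlapped. Of the 7 genes listed as usual in HEK293, 5 were in the table (PAX2, LHX1, VIM, KRT8 and KRT18), and NEFM and NEFL were not. None of the 5 markers of blood, endothelium, liver, muscle and basal epithelium was in the table.

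The 50 genes together took a smaller share of the counts in every variant library than in either control library. The share was 0.697% in control 1 and 0.704% in control 2, against 0.633%, 0.643% and 0.668% in variant 1, variant 2 and variant 3. In bulk RNA, less of these transcripts in every cell and fewer cells rich in them cannot be told apart. All 50 genes passed the filter on low counts, with between 32 and 12574 counts in a library.

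Gene by gene the differences were small. By edgeR's quasi-likelihood test, with Benjamini-Hochberg adjustment over the 16310 tested genes, 0 of the 50 genes and 0.0% of all genes fell under an adjusted p of 0.05. DESeq2's Wald test gave 0 of the 50 at an adjusted p under 0.05, where it called 32 genes in all (0.213%). At an unadjusted p under 0.05 there were 4 of the 50 genes (8.0%), HSPE1, HSPD1, TIMM17A and PHB2, all lower in the variant, where 7.62% of all tested genes reached that level, 3.51% lower and 4.11% higher. In either direction the share is thus near the background. Without variant 2 the count was 2 of the 50 genes (4.0%), against 4.73% of all genes in that fit. Of the 50 genes 33 (66.0%) had a log2 fold change below 0, against 49.5% of all tested genes, and the median was -0.09 against 0.00300. Groups without overlap were found for 19 of the 50 genes (38.0%), against 24.8% of all tested genes. Of these 19 genes, 16 were lower in the variant (32.0%, background 13.0%) and 3 were higher (background 11.8%). With 1 library fewer, groups without overlap are commoner among all genes too. The 16 lower genes became 25 without control 1 (50%, background 24.4%). The 3 higher genes became 12 without control 2 (24%, background 27.1%), 7 without variant 1 (14%, background 19.2%), 6 without control 1 (12%, background 23.3%) and 6 without variant 2 (12%, background 16.2%).

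**Figure D1:**
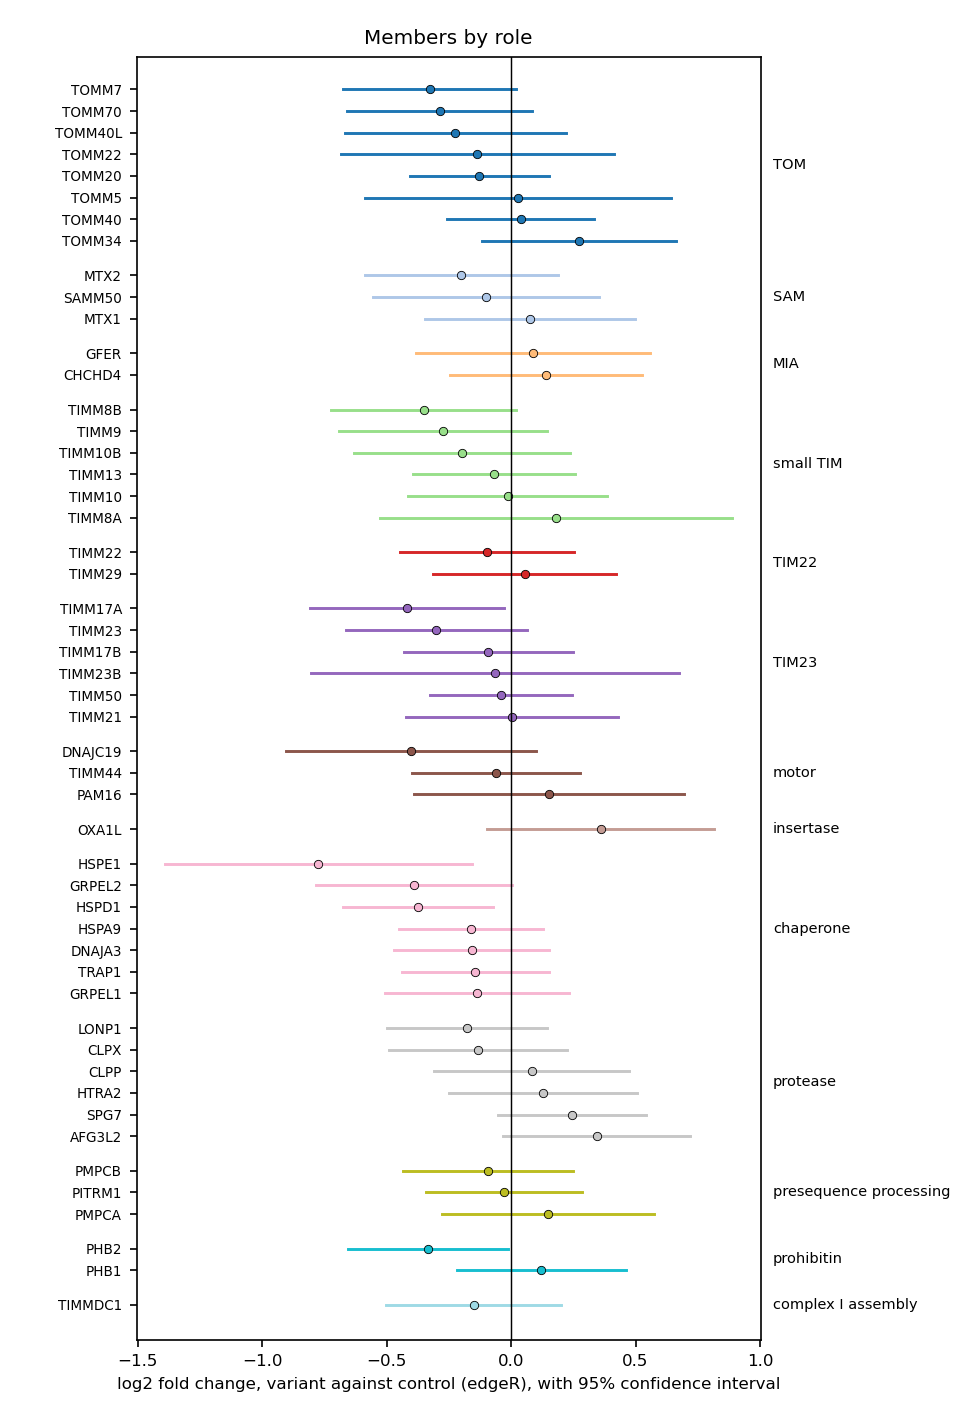
Log2 fold change of the variant against control for each of the 50 genes, grouped by role (names at the right), as points with 95% confidence intervals from edgeR; the vertical line marks no difference. The intervals of HSPE1, HSPD1, TIMM17A and PHB2 lie wholly below 0, all 7 chaperones have points below 0, and 4 of 6 proteases have points above 0.

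The starts of these genes were examined for binding motifs, because promoters of mitochondrial genes are known for sites of NRF1 (nuclear respiratory factor 1) and of ETS factors such as GABP. RefSeq windows of 250 bases before the gene start (GRCh38.p14) were at hand for 46 of the 50 genes, and GRPEL1, TOMM5, TIMM8B and CLPP were not matched. The NRF1 letters, GCGCA and GCGC with any base between them on either strand, occurred in 13 of the 46 windows (28.3%), against 6.56% of 22198 windows of protein-coding genes and 5.07% of all 35116 windows. The ETS letters CCGGAAG, on either strand, occurred in 14 (30.4%), against 10.7% of the protein-coding windows and 8.52% of all windows. The 2 motifs do not overlap in letters, 24 windows (52.2%) held at least one, against 16.2% of protein-coding windows, and DNAJA3, TIMM29 and TOMM20 held both. The 13 NRF1 matches are shown because their share stands furthest, as a ratio, above that of protein-coding windows among the motifs searched. Each line is 5′ to 3′ on the strand of the gene, with the match nearest the gene start in capitals.
CHCHD4 (chr3:14124938-14124967, reverse strand): cctcattgatGCGCCTGCGCactgcaaagc
CLPX (chr15:65185413-65185442, reverse strand): cgggcctaggGCGCAGGCGCgcgcaagctc
DNAJA3 (chr16:4425838-4425867, forward strand): ccacctagagccgggcgGCGCAGGCGCaga
HSPD1 (chr2:197500322-197500351, reverse strand): atcacccagcGCGCAGGCGCgctcgcccca
HSPE1 (chr2:197500322-197500351, forward strand): tggggcgagcGCGCCTGCGCgctgggtgat
OXA1L (chr14:22766657-22766686, forward strand): ggttcttactGCGCAGGCGCaaaagcaagt
PAM16 (chr16:4351326-4351355, reverse strand): gcgccgtatcGCGCACGCGCtctctgcggc
SPG7 (chr16:89508353-89508382, forward strand): ccaccccgccGCGCAGGCGCcgtgtagcgc
TIMM29 (chr19:10928727-10928756, forward strand): ggtaaagttgGCGCTTGCGCagaagagact
TOMM20 (chr1:235128919-235128948, reverse strand): ttcgcccactGCGCAGGCGCaggagccgcg
TOMM34 (chr20:44960398-44960427, reverse strand): gagatattcgccgccgGCGCTTGCGCccgg
TOMM40 (chr19:44891022-44891051, forward strand): gagccaatagGCGCAGGCGCtgcgagccaa
TOMM7 (chr7:22822850-22822879, reverse strand): gtaaaggccgtgtgtgGCGCCTGCGCacct
HSPD1 and HSPE1 lie head to head, and their lines are the same 30 bases read on opposite strands: a single NRF1 match that ends 57 bases before the HSPD1 start and 37 bases before the HSPE1 start.

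The genes with NRF1 letters lay on both sides of 0. For the 13 with a match the median difference was 0.04 on the log2 scale, with 6 below 0, and for the 33 without it was -0.10, with 25 below 0. Genes with the ETS letters lay lower, with a median of -0.15 and 13 of 14 below 0, against -0.05 and 18 of 32 without. The 14 include both TIMM23 and TIMM23B, near-identical paralogs that can share reads. After a correction for GC content and length, described below, PMPCB, TIMM10, TIMM23B and TIMM29 were above 0. They had 0.12, 0.10, 0.07 and 0.03, and the rest of the 14 were below 0. A match is only a run of letters and does not show binding. For each of the 14 genes the ETS match nearest the gene start is shown in capitals. The line of TIMM23B holds a further match, left in lower case.
DNAJA3 (chr16:4425736-4425762, forward strand): cgatggctacCCGGAAGgcgcgttggc
GRPEL2 (chr5:149345423-149345449, forward strand): gcgttcctgtCCGGAAGtcctgagagg
LONP1 (chr19:5720302-5720328, reverse strand): aagtgggagaCCGGAAGaggcggagac
PHB2 (chr12:6970837-6970863, reverse strand): cacaaatttcCTTCCGGctgccatttt
PMPCB (chr7:103297408-103297434, forward strand): ggtcgcgaccCCGGAAGcacatccttc
TIMM10 (chr11:57530755-57530781, reverse strand): gcgggactttcctcCCGGAAGtaaccc
TIMM10B (chr11:6481446-6481472, forward strand): cgagaggttaCTTCCGGggcggcaccg
TIMM13 (chr19:2427587-2427613, reverse strand): gtgccccgggcggcccgCTTCCGGcgc
TIMM23 (chr10:45972431-45972457, forward strand): gcgcttccagCTTCCGGggcgcacatt
TIMM23B (chr10:49942001-49942027, forward strand): gcgcttccggCTTCCGGggcgcacact
TIMM29 (chr19:10928712-10928738, forward strand): tgggaagccaCTTCCGGtaaagttggc
TIMMDC1 (chr3:119498461-119498487, forward strand): ccgccctcaaCCGGAAGtcttttgggc
TOMM20 (chr1:235128843-235128869, reverse strand): ttgactgggaCCGGAAGtggcgtgtgc
TOMM70 (chr3:100401092-100401118, reverse strand): atgccctgggCTTCCGGtgacctctgg
Of the stress-response motifs searched, on either strand, the heat shock letters GAANNTTC occurred in 0 of 46 windows (4.9% of protein-coding windows), TTCNNGAA in 3 (6.52%, against 5.8%), and the ATF and C/EBP letters TGATGNAA in 2 (4.35%, against 2.35%).

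The chaperones of the matrix lay on one side of control. All 7 had a log2 fold change below 0, with a median of -0.16, and at 5 of the 7 every variant library lay below both control libraries (71.4%, background 13.0% for lower). HSPD1, the chaperonin HSP60, stood at 732 and 717 CPM in control 1 and control 2 and at 611, 566 and 500.4 CPM in variant 1, variant 2 and variant 3. The control libraries were close together and all 3 variant libraries were lower. The fitted difference was -0.37 (SE 0.14, 95% confidence interval -0.68 to -0.07) on the log2 scale, a level 0.772 times that of control, at unadjusted p = 0.0208 and adjusted p = 0.616 by edgeR. After a correction for GC content and length, described below, it was -0.27, at unadjusted p = 0.0548 by edgeR. HSPD1 and HSPE1 lie on chromosome 2, whose median log2 fold change over 723 genes was -0.14. Relative to the 5-library mean, that median was 0.12 and 0.05 in the control libraries. In variant 1, variant 2 and variant 3 it was 0.05, 0.03 and -0.27. HSPD1 had 0.24, 0.21, -0.02, -0.13 and -0.31 in control 1 to variant 3. The part of the chromosome in these values was not tested.

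HSPE1, the co-chaperonin HSP10 that caps HSP60, had the largest fitted difference of the 50 genes, but it rested on 1 library. It stood at 114 CPM in control 1 and 56.6 CPM in control 2, against 47.5, 59.5 and 42.5 CPM in the variant libraries. Control 1 stood apart from all the others, and variant 2 was above control 2. The log2 fold change was -0.77 (SE 0.27), at unadjusted p = 0.0190 and adjusted p = 0.616 by edgeR, and it was -0.19 without control 1 and -1.19 without control 2. Its level is also uncertain. In GENCODE release 29, 18.6% of its exon bases are shared with the read-through gene HSPE1-MOB4, which has no row in the table, 27.3% face exons of HSPD1 on the other strand, and 26 pseudogenes carry its name. HSPD1 has 17 such pseudogenes, and whether the counting used the strand is not given in the sources used here.

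HSPA9 encodes mtHSP70, the motor of matrix import. It stood at 566 and 534 CPM in the control libraries and at 507, 459 and 510.5 CPM in the variant libraries, so the groups did not overlap, although the distance between them was small. On the log2 scale the variant differed by -0.16 (SE 0.13), at adjusted p = 0.762 by edgeR. GRPEL1 and GRPEL2 are its nucleotide exchange factors. GRPEL2 stood at 43.1 and 36.1 CPM in the control libraries and at 29.5, 29.05 and 32.1 CPM in the variant libraries, again without overlap. The log2 difference came to -0.39 (SE 0.17), at unadjusted p = 0.0508 by edgeR. It was -0.26 without control 1, and -0.23 after the correction for GC content and length, at unadjusted p = 0.174 by edgeR. GRPEL1 had -0.14 (SE 0.16), and its groups overlapped. DNAJA3, a DnaJ-type partner of mtHSP70, and TRAP1, the mitochondrial HSP90, had log2 fold changes of -0.16 and -0.14. DNAJA3 stood at 163 and 165.5 CPM against 139, 146 and 156 CPM, and TRAP1 at 223 and 225 CPM against 202, 197 and 208 CPM.

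**Figure D2:**
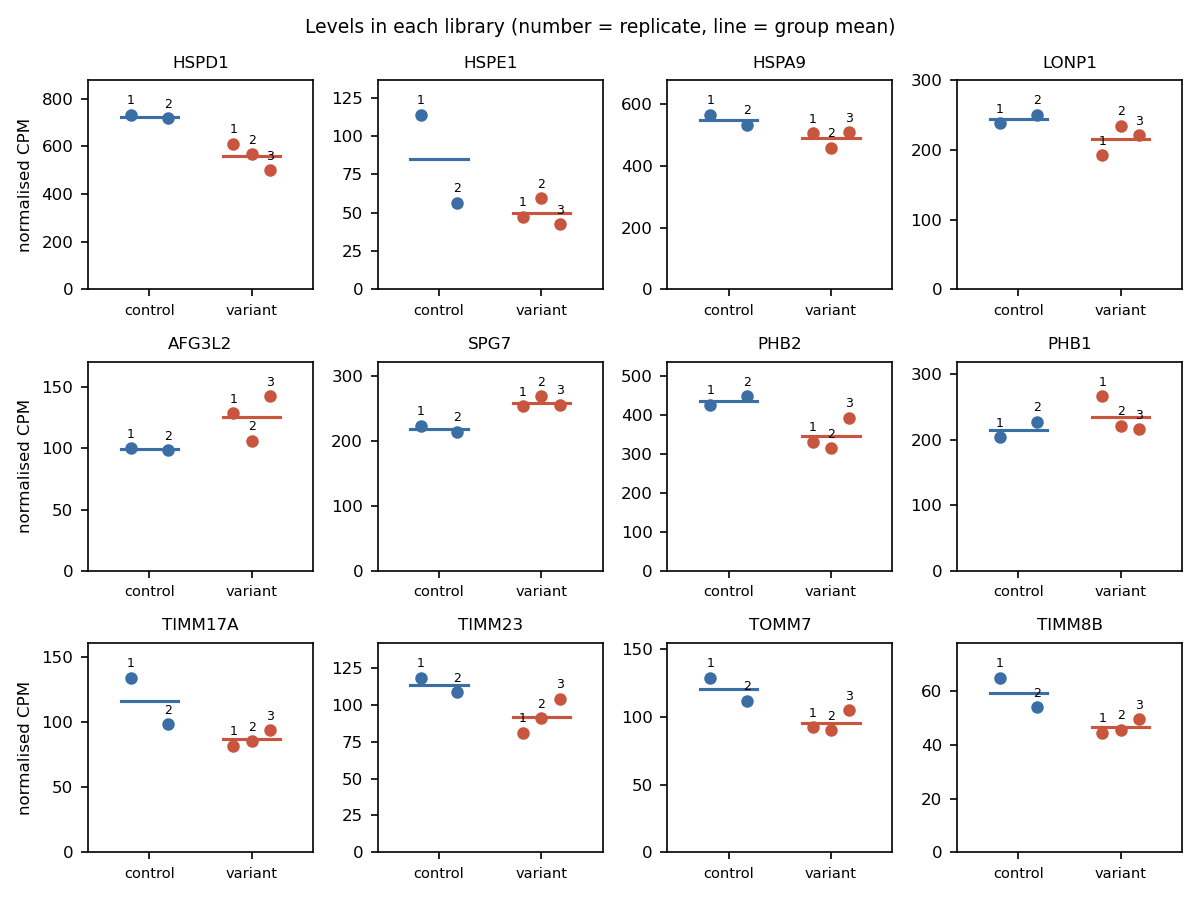
Normalised CPM of 12 of the genes in each library, on axes that start at 0, with 2 control libraries (blue), 3 variant libraries (red), the replicate number above each point and a line at each group mean. HSPD1, HSPA9, LONP1, PHB2, TIMM17A, TIMM23, TOMM7 and TIMM8B are lower in all 3 variant libraries than in both control libraries, AFG3L2 and SPG7 are higher in all 3, and HSPE1 and PHB1 overlap.

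The ATP-dependent proteases and HTRA2 were divided. Of the 6, 2 were below 0 and 4 above 0, with a median of 0.11. AFG3L2 and SPG7 are the partner subunits of the m-AAA protease, which sits in the inner membrane with its active site in the matrix, and both were higher in every variant library than in either control library. AFG3L2 stood at 100.1 and 98.4 CPM in the control libraries and at 129, 106 and 142 CPM in the variant libraries. That gave a log2 fold change of 0.34 (SE 0.17), at unadjusted p = 0.0683 and adjusted p = 0.659 by edgeR. SPG7 stood at 224 and 214 CPM against 253, 269 and 256 CPM. In the fit its log2 difference was 0.24 (SE 0.13), at adjusted p = 0.682 by edgeR, and after the correction for GC content and length it was 0.06 and the groups overlapped. AFG3L2 kept 0.32 there, and its groups still did not overlap. AFG3L2 lies on chromosome 18, where the median of 168 genes was also higher, at 0.19, and 23.2% of its exon bases face exons of TUBB6 on the other strand.

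LONP1, the soluble matrix protease that degrades oxidised and misfolded proteins, lay on the other side. It stood at 238 and 250.3 CPM in the control libraries and at 192, 235 and 221 CPM in the variant libraries, and the groups did not overlap. The log2 fold change was -0.18 (SE 0.14), at unadjusted p = 0.247 by edgeR. After the correction for GC content and length it was -0.33, at unadjusted p = 0.0196 and adjusted p = 0.774 by edgeR. CLPP, the peptidase of the ClpXP protease, stood at 123 and 142 CPM against 116, 161 and 144 CPM, so the variant libraries lay on both sides of control. The fitted difference was 0.08 (SE 0.17) on the log2 scale, and that of CLPX, the unfoldase that feeds it, was -0.13 (SE 0.16). HTRA2, a serine protease of the intermembrane space, had 0.13 (SE 0.17).

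The enzymes that cut presequences showed no common direction. PMPCA and PMPCB are the subunits of the mitochondrial processing peptidase, and PITRM1 degrades the released peptides. PMPCA stood at 205 and 216 CPM in the control libraries and at 183, 230.1 and 288 CPM in the variant libraries, where variant 3 was the highest library and variant 1 the lowest of all 5. On the log2 scale the variant differed by 0.15 (SE 0.19), and PMPCB and PITRM1 had -0.09 and -0.03. PMPCA lies on chromosome 9, whose median over 433 genes was 0.36.

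The prohibitins, PHB1 and PHB2, form a ring in the inner membrane to which the m-AAA protease binds, and the pair differed in direction. PHB2 stood at 427 and 449 CPM in the control libraries and at 332, 316 and 394 CPM in the variant libraries, so all 3 variant libraries were lower. The log2 difference came to -0.33 (SE 0.14, 95% confidence interval -0.66 to -0.01), at unadjusted p = 0.0435 and adjusted p = 0.642 by edgeR. After the correction for GC content and length it was again -0.33, at unadjusted p = 0.0214 by edgeR. PHB1 stood at 204 and 227 CPM in the control libraries and at 266, 222 and 216 CPM in the variant libraries, which overlapped, and its log2 fold change was 0.12 (SE 0.15). PHB1 has 21 pseudogenes named for it, and 47.0% of its exon bases face an unnamed transcript on the other strand that has no row in the table. TIMMDC1 carries the TIMM prefix but is known as an assembly factor of respiratory complex I. It stood at 56.7 and 56.4 CPM against 53.3, 47.6 and 51.96 CPM, a log2 fold change of -0.15 (SE 0.16).

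Among the 8 TOMM genes, most of them subunits of the TOM complex, 3 were lower in every variant library (37.5%, background 13.0%) and 0 were higher in every one (background 11.8%). TOMM7, a small subunit that steadies the complex, had the largest difference of the role. It stood at 129 and 112 CPM in the control libraries and at 92.1, 90.07 and 105 CPM in the variant libraries. That gave a log2 fold change of -0.33 (SE 0.15), at unadjusted p = 0.0614 by edgeR, and -0.13 after the correction for GC content and length, where the groups overlapped. TOMM70, a receptor for carrier proteins, stood at 97.05 and 88.97 CPM against 87.7, 69.7 and 71.3 CPM, and its log2 fold change was -0.29 (SE 0.17). TOMM20, the main presequence receptor, stood at 573 and 541 CPM against 512, 502 and 516 CPM, a log2 fold change of -0.13 (SE 0.12). TOMM40 forms the pore itself. It stood at 313 and 341 CPM against 322, 336 and 349 CPM, and its log2 fold change was 0.04 (95% confidence interval -0.26 to 0.33) with groups that overlapped, and -0.07 after the correction for GC content and length. The remaining genes with the TOMM prefix, TOMM5, TOMM22, TOMM34 and TOMM40L, ran from -0.22 to 0.27 and overlapped.

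TOMM22, the central receptor, and SAMM50, the core of the SAM complex that inserts barrel proteins into the outer membrane, varied more between libraries than between groups. TOMM22 stood at 148 and 233 CPM in the control libraries and at 195, 125 and 199 CPM in the variant libraries. SAMM50 stood at 94.02 and 145 CPM in the control libraries and at 118, 97.02 and 119 CPM in the variant libraries. Control 1 and variant 2 were the low libraries for both. Their log2 fold changes were -0.14 (SE 0.24) and -0.10 (SE 0.20), and both were above 0, at 0.23 and 0.24, without control 2. Both genes lie on chromosome 22. The median of 276 genes of that chromosome, relative to the mean of the 5 libraries, was -0.27 in control 1 and -0.23 in variant 2, and 0.18, 0.11 and 0.21 in control 2, variant 1 and variant 3. TOMM22 had -0.25, 0.41, 0.15, -0.49 and 0.18 in control 1 to variant 3, and SAMM50 had -0.27, 0.36, 0.06, -0.22 and 0.07. The part of the chromosome in these values was not tested.

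**Figure D3:**
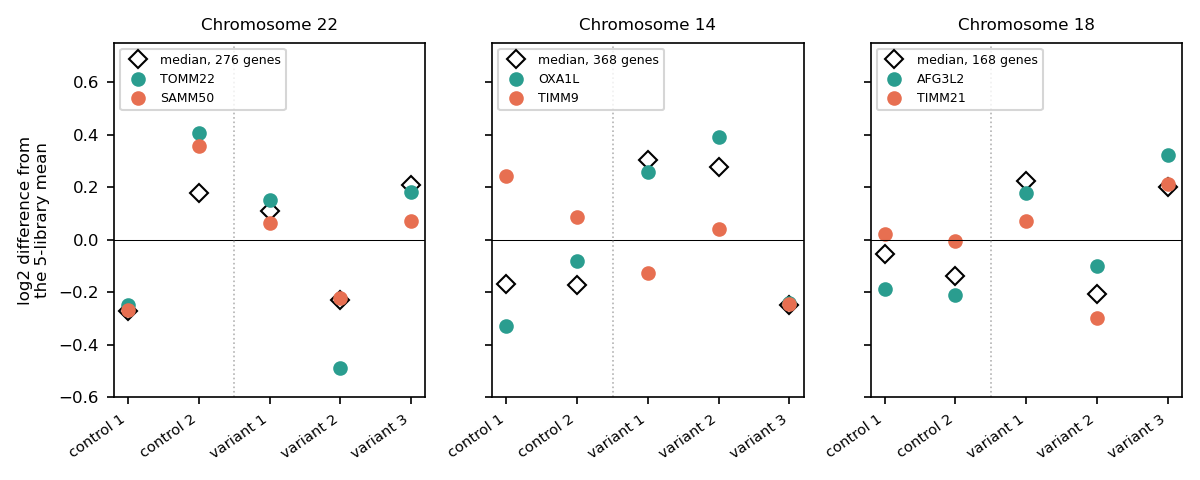
Log2 level of 6 genes in each library relative to the mean of the 5 libraries (filled points), beside the median of the genes of the same chromosome with a mean log2 CPM above 3 (open diamonds); a dotted line divides control from variant libraries. TOMM22 and SAMM50 lie with the chromosome 22 median, low in control 1 and variant 2. OXA1L lies with the chromosome 14 median, high in variant 1 and variant 2, while TIMM9 on chromosome 14 does not. AFG3L2 and the chromosome 18 median are both above 0 in variant 1 and variant 3 only.

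OXA1L, the insertase that places proteins made inside mitochondria into the inner membrane, had the highest log2 fold change of the 50 genes, 0.36 (SE 0.20), at adjusted p = 0.698 by edgeR. It stood at 95.6 and 113 CPM in the control libraries and at 143, 157 and 102 CPM in the variant libraries. Variant 3 lay between the control libraries, so the groups overlapped, and the value was 0.53 without variant 3 and 0.23 without variant 2. On chromosome 14, which holds OXA1L, the median of 368 genes was -0.17 in both control libraries, 0.30 and 0.28 in variant 1 and variant 2, and -0.25 in variant 3. TIMM9 is on the same chromosome and stood at 28.5 and 25.5 CPM against 22.02, 24.7 and 20.3 CPM, lower in all 3 variant libraries.

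The other genes of the outer membrane and the intermembrane space differed little. MTX1 and MTX2, the metaxins of the SAM complex, had log2 fold changes of 0.08 and -0.20. MTX2 stood at 56.2 and 68.3 CPM against 57.04, 57.75 and 47.9 CPM, where variant 3 was the low library. CHCHD4 and GFER are the oxidoreductases of the MIA pathway, which trap small proteins in the intermembrane space by disulfide bonds. CHCHD4 stood at 26.2 and 26.3 CPM in the control libraries and at 28.2, 29.3 and 29.4 CPM in the variant libraries. It was thus higher in all 3, with a log2 fold change of 0.14 (SE 0.17). GFER had 0.09 (SE 0.21), and its groups overlapped.

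The small TIM proteins guide hydrophobic precursors across the intermembrane space, and 5 of these 6 genes had a log2 fold change below 0, with a median of -0.13. At TIMM8B, TIMM9 and TIMM10B (50% of the 6, background 13.0% for lower) every variant library was lower than both control libraries. All 3 have under 50% GC, where 21.7% of all genes with a mean log2 CPM above 3 were lower without overlap. TIMM8B stood at 64.8 and 53.8 CPM in the control libraries and at 44.4, 45.5 and 49.5 CPM in the variant libraries. In the fit its log2 difference was -0.35 (SE 0.17), at unadjusted p = 0.0621 by edgeR. It was -0.21 without control 1. After the correction for GC content and length it was -0.14, and the groups of TIMM9 and TIMM10B then overlapped. In TIMM8B, 45.9% of the exon bases face exons of NKAPD1 and SDHD on the other strand. TIMM13, TIMM10 and TIMM8A had -0.07, -0.01 and 0.18. In the carrier translocase, TIMM22, its channel, stood at 82.7 and 96.95 CPM against 83.7, 79.7 and 88.7 CPM, a log2 fold change of -0.10 (SE 0.16), and TIMM29 had 0.05 (SE 0.16).

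The TIM23 complex carries proteins with a presequence into the matrix, and TIMM17A and TIMM23 of its membrane core were the lower members. TIMM17A stood at 134 and 98.8 CPM in control 1 and control 2 and at 82.1, 85.7 and 94.2 CPM in the variant libraries. All 3 variant libraries were lower, but control 2 was closer to them than to control 1. The fitted difference was -0.42 (SE 0.17, 95% confidence interval -0.81 to -0.03) on the log2 scale, at unadjusted p = 0.0384 and adjusted p = 0.634 by edgeR. It was -0.18 without control 1 and -0.62 without control 2, and -0.17 after the correction for GC content and length. TIMM23, the channel, stood at 118 and 108 CPM against 81.03, 90.8 and 104 CPM, a log2 fold change of -0.30 (SE 0.16), at unadjusted p = 0.0943 by edgeR. Its near-identical paralog TIMM23B, on the same chromosome, at 1.65 CPM per kilobase against 82.2 for TIMM23, can share reads with it, so both levels are uncertain. TIMM50, the presequence receptor of the complex, was even across libraries, at 379 and 391 CPM against 380.2, 381 and 362 CPM. TIMM17B and TIMM21 had log2 fold changes of -0.09 and 0.00378.

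TIMM17A is known as a subunit whose protein is degraded under stress and TIMM17B as its more stable paralog, and the promoter of TIMM17A is shown because it is the import gene with the smallest p and holds neither NRF1 nor ETS letters. The 238 bases run from 250 to 13 bases before the start (chr1:201955253-201955490, forward strand, GRCh38.p14) and exclude bases that GENCODE's basic set gives as exon. Capitals mark CCAAT and GGGCGG on either strand.
TIMM17A: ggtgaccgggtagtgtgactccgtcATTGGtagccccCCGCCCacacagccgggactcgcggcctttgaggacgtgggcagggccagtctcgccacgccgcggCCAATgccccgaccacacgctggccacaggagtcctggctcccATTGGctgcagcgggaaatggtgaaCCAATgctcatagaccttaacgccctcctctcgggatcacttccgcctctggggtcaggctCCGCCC
The CCAAT letters occurred in 32.6% of the 46 windows, against 32.7% of protein-coding windows, and the GGGCGG letters in 69.6%, against 53.7%.

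The import motor links TIM23 to mtHSP70. DNAJC19, its DnaJ-type subunit, stood at 28.3 and 18.4 CPM in the control libraries and at 16.9, 17.3 and 18.8 CPM in the variant libraries, so control 1 alone stood apart. On the log2 scale the variant differed by -0.40 (SE 0.22), at unadjusted p = 0.103 by edgeR. It was -0.06 without control 1, -0.68 without control 2 and -0.12 after the correction for GC content and length, and 9 pseudogenes carry the name. TIMM44, the scaffold of the motor, had -0.06 (SE 0.15). PAM16 had 0.15 (SE 0.24), and 33.9% of its exon bases are shared with the read-through gene CORO7-PAM16, which has no row in the table.

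Import subunits were then compared with chaperones, proteases and presequence peptidases as classes. The median log2 fold change was -0.07 for the 31 import genes, with 20 below 0, and the 16 chaperones, proteases and peptidases had -0.13, with 11 below 0, against 0.00300 and 49.5% for all tested genes. The groups did not overlap, lower or higher, at 9 of the 31 import genes (29%) and at 8 of the 16 others (50%), against 24.8% of all tested genes. The median of the import genes minus that of the others, taken in each library, was -0.06 and -0.00918 in the control libraries and 0.07, -0.07 and 0.02 in the variant libraries. These values overlapped between the groups. The difference of their fold-change medians, 0.06, was about the size of its SD between libraries, 0.0596.

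Within the second class the roles differed more. The import median minus the median of the 7 chaperones alone was -0.12 and -0.05 in the control libraries and 0.10, 0.07 and 0.04 in the variant libraries, without overlap. After the correction for GC content and length these values were -0.11 and -0.03 against 0.14, 0.07 and 0.02, again without overlap. The chaperone median minus the protease median was 0.26 and 0.10 in control 1 and control 2 and -0.07, -0.18 and -0.09 in variant 1, variant 2 and variant 3, without overlap. After the correction for GC content and length the same values were 0.16, 0.07, -0.11, -0.13 and -0.04. Both splits were made after the values were seen, and they have no test. Against the 5-library mean the chaperones stood at 0.14 and 0.09 in the control libraries and at -0.14, -0.13 and -0.02 in the variant libraries.

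**Figure D4:**
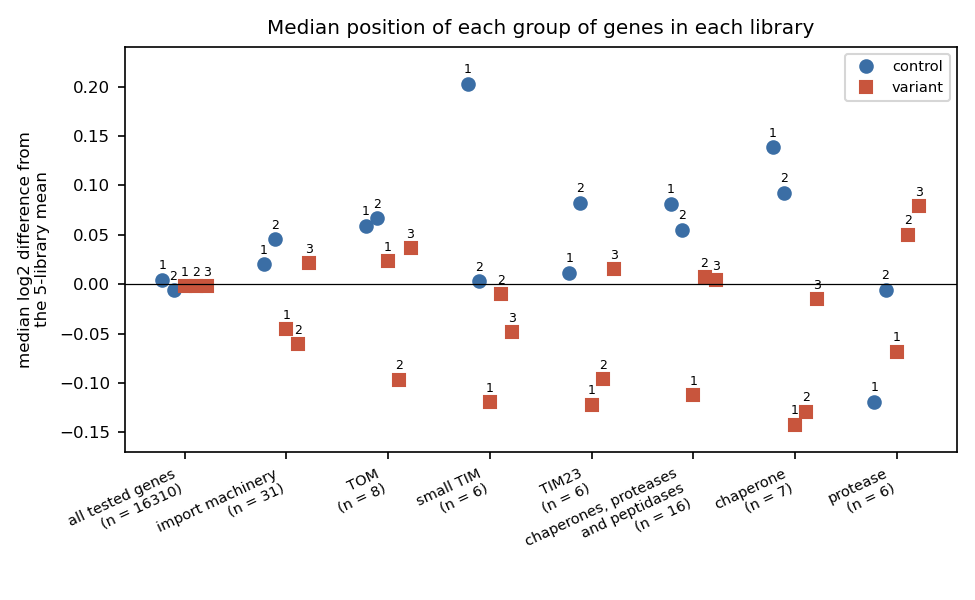
Median log2 difference from the 5-library mean for each group of genes in each library, with control libraries as blue circles, variant libraries as red squares, the replicate number above each point and the number of genes below each group. The 7 chaperones lie between 0.09 and 0.14 in the control libraries and between -0.14 and -0.02 in the variant libraries, while the import genes and the proteases overlap between groups.

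The differences moved with the GC content of the genes. Spearman's rho between GC content and log2 fold change was 0.488 over the 50 genes, and over 10854 genes with a mean log2 CPM above 3 it was 0.408. These are correlations across genes that share the same 5 libraries, given as a description. In single libraries the same correlation for the 50 genes' deviations from the 5-library mean was -0.542 and -0.0153 in control 1 and control 2, and 0.00552, 0.361 and 0.510 in the 3 variant libraries in order. The median log2 fold change was -0.15 for the 25 genes with under 50% GC, with 12 lower and 2 higher in all 3 variant libraries. The 25 others had -0.03, with 4 lower and 1 higher. Among all genes above the same level the medians were -0.09 under 50% GC and 0.09 at or over it. Under 50% GC, 21.7% of those genes were lower without overlap and 5.89% higher, and at or over 50% GC 5.91% were lower and 18.1% higher.

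A fit with a spline correction for GC content and transcript length in each library is built to remove that relation. It left a correlation of 0.0478 over the 50 genes. In this fit the median of the 50 genes was -0.05, and 30 were below 0. PHB2, HSPE1 and LONP1, 3 of the 50 (6.0%), had an unadjusted p under 0.05 by edgeR, against 6.3% of all genes in that fit. No overlap was left for 16 of the 50 genes (32.0%), against 22.9% of all genes. Of these, 13 were lower (26.0%, background 11.7%) and 3 were higher (background 11.2%). The chaperones had 7 of 7 below 0 and 5 of 7 lower in every variant library, with a median of -0.21, so their direction was the same as before. Of the 8 import genes that were lower in every variant library, TOMM20, TOMM7, TIMM17A, TIMM23, TIMM9 and TIMM10B overlapped after the correction, and TOMM70 and TIMM8B did not. The log2 fold change of TIMM23 was then -0.18, that of TIMM9 -0.04, that of TOMM20 -0.00407 and that of TIMMDC1 -0.02. TIMM22, TIMM17B, TOMM40 and TOMM40L, lower, and TOMM34, higher, ceased to overlap in it.

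**Figure D5:**
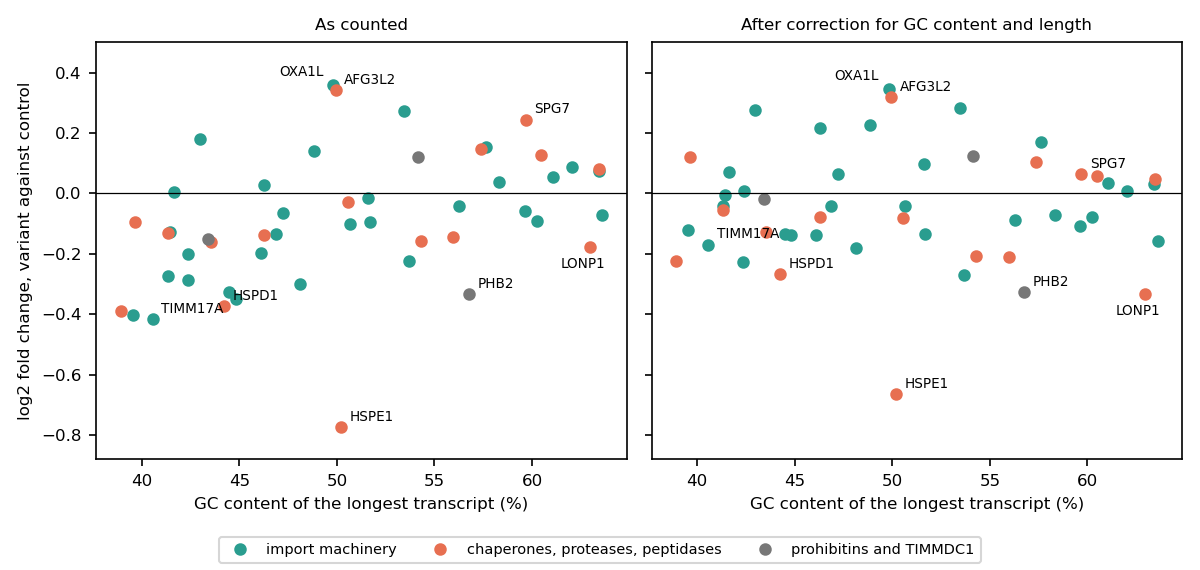
Log2 fold change of the variant against control for the 50 genes over the GC content of the longest transcript in percent, as counted (left) and corrected for GC content and length (right), coloured by class. As counted the points slope upward from left to right and after the correction they lie level, where HSPE1, LONP1 and PHB2 are the lowest at -0.66, -0.33 and -0.33.

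Levels were compared between genes per kilobase of exon. PHB2 and HSPD1 were the most abundant, at 253 and 243 CPM per kilobase over the 5 libraries, followed by TOMM20 at 156 and TIMM50 at 147. The lowest were TIMM23B at 1.65 and PAM16 at 6.47, both with uncertain counts. The balance of partner genes was followed as a log2 ratio of CPM per kilobase in each library, for 10 pairs picked with the values known. PHB2 over PHB1 was 1.498 and 1.41 in the control libraries and 0.75, 0.94 and 1.30 in the variant libraries, so the PHB2 excess was smaller in all 3. GRPEL2 over GRPEL1 was -1.13 and -1.40 against -1.45, -1.47 and -1.60. TIMM17A over TIMM17B was -0.16 and -0.73 against -0.75, -0.76 and -0.76, where control 1 stood apart. TOMM40L over TOMM40 and TIMM9 over TIMM10 were also lower in all 3 variant libraries. The other 5 pairs overlapped, AFG3L2 over SPG7 among them. The share without overlap over other gene pairs was not taken, so the 5 lower pairs have no background. Over single genes, in either direction, that share was 24.8%. An exact permutation test was used in which the two-sided p is 2 times the smaller tail. So computed, 2 against 3 libraries cannot go below 0.2. The 5 lower pairs reached that value, with an adjusted p of 0.4 by this test over the 10 pairs.

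A list of 28 further genes of the pathway, all tested, had 17 below 0 and 11 above, with a median of -0.09. By edgeR 0 of the 28 reached an adjusted p under 0.05 (background 0.0%). An unadjusted p under 0.05 by edgeR was found for 1 of the 28 (background 7.62%). That gene was MTCH1, an insertase of the outer membrane. It stood at 293 and 331 CPM in the control libraries and at 359, 391 and 412 CPM in the variant libraries. The log2 difference came to 0.31 (SE 0.14), at unadjusted p = 0.0497 and adjusted p = 0.655 by edgeR. Groups without overlap were found for 11 of the 28 (39.3%, background 24.8%), 9 lower (background 13.0%) and 2 higher (background 11.8%). All 5 presequence and sorting peptidases of this list had log2 fold changes below 0, from -0.68 to -0.02. The list's 4 other chaperones were divided, 2 below 0 and 2 above, with a median of -0.03. Its 5 other inner membrane proteases and partners had 4 below 0 and 1 above, with a median of -0.22. The chaperone and protease directions of the 50 genes were thus not repeated in these sets, which hold only 4 and 5 genes. Among the 4 chaperones DNLZ, 1 of the 2 above 0, had low levels, from 0.87 to 1.75 CPM. C1QBP, the most abundant, was the only 1 of the 4 without overlap, and it was lower in the variant. Of the transcription factors named for the mitochondrial unfolded protein response, ATF4, ATF5, DDIT3, CEBPB and HSF1, all 5 had groups that overlapped, with log2 fold changes from -0.26 to 0.07.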

How the data were processed

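Strand-specific mRNA libraries were read on DNBSEQ as single ends of 50 bases, per the labels' protocols. The authors deposited raw read counts per Ensembl gene, with HISAT2, SAMtools, HTSeq and the build hg38 named in the submitters' processing notes. The annotation, the strand setting and any filter on genes are not given in the sources used here; the lowest total of a gene in the deposited counts was 17. Columns were matched to samples by library name. Symbols came from the gene name table (16627 of 16677 identifiers), positions, exons and GC content from GENCODE release 29, and promoters from RefSeq.

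Counts were filtered with filterByExpr (16310 genes, 97.8%), scaled by TMM and tested with the quasi-likelihood test of edgeR 4.0.16 in R 4.3.3, robust, with group as the only term, all 5 libraries in a single fit and p-values adjusted over all tested genes (threshold 0.05). Levels are TMM-normalised CPM. The log2 deviations of a library use a prior count of 2. No identical libraries were found: chi-square per degree of freedom between pairs was at least 17.0. The test was checked on simulated counts in which 200 genes were changed. At an adjusted p under 0.05 edgeR recovered 4% of genes changed 1.5-fold and 50% of those changed 2-fold. It recovered 80% at 4-fold and 98% at 8-fold, and called 16 unchanged genes. With no gene changed it called 2. Changes of 1.5-fold were thus mostly missed, so the absence of calls among the 50 genes does not exclude differences of that size.

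The members and lists were chosen with earlier results of these data known. Genes given with values in every library were those with an unadjusted p under 0.05, the largest fold change of each role, and HSPA9, HSPD1, HSPE1, LONP1 and CLPP; others were chosen after their values were seen. Alternatives were RLE and upper-quartile scaling, no filter, at least 10 counts in every library, DESeq2 1.42.0, limma-voom (limma 3.58.1), the replicate number as a block, a spline correction (5 degrees of freedom) for GC content and length of the transcript, both together, narrower classes, and leaving out each library.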

Additional observations from a re-analysis of the deposited data

How the results depend on the processing

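None of the 50 genes passed an adjusted p of 0.05 in any of the 14 alternative fits. Of 33 genes, which are SIRT3 and members named with values, 25 kept the sign of their log2 fold change in every fit. The lowest adjusted p was 0.371, for HSPE1 in DESeq2's Wald test. Over all tested genes, edgeR's count with an adjusted p under 0.05 was 0. It was 32 in DESeq2's Wald test and 3 with the replicate block and the GC and length correction together, and ran from 0 to 4 when 1 library was left out. At an unadjusted p under 0.05 it was 1243, and ran from 549 (without control 1) to 1618 (without variant 3). Among the 50 genes that count was 4, was 2 (4.0%, against 8.54% of all genes) with the replicate block and the GC and length correction together, and ran from 0 to 5 when 1 library was left out. Genes lower without overlap numbered 16 to 25 in the same fits, 32.0 to 50% of the members against 17.9 to 29.8% of all genes, and genes higher 4 to 12, 8 to 24% against 16.2 to 27.1%. The lone control library is there assumed to vary like the others.

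The import median of -0.0704 was -0.12 with the replicate block, and ran from -0.118 to -0.0517 when 1 library was left out. The same fits gave -0.144 to -0.0953 for chaperones, proteases and peptidases and 0.0261 to 0.0864 for the difference of the medians. The replicate numbers are shared by 2 pairs of libraries only, whose deviations from their group means correlated at 0.12 and -0.11. Control 2 and variant 3, of different number, had 0.22. With 2 control libraries the deviations of control 1 mirror those of control 2, so these values cannot settle whether the samples are paired. The numbers were not taken to pair them. The replicate block gave 3 of the 50 genes (6.0%) at an unadjusted p under 0.05, against 9.55% of all genes.

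Signs turned for these genes, and the cause was not tested. Leaving out 1 library gave CLPP -0.0275 (without variant 2) to 0.201, with -0.0136 without control 1, and PMPCA -0.0306 (without variant 3) to 0.297. The same fits gave SAMM50 -0.38 to 0.245, TIMM22 -0.207 to 0.0235 and TOMM22 -0.427 to 0.23, each positive without control 2, with TOMM22 at 0.0515 without variant 2. TOMM40 ran from -0.0232 (without control 1) to 0.102. With the GC and length correction MTX2 was 0.00889 and TOMM40 -0.0699. With the replicate block PMPCA was -0.0395, and with block and correction together PMPCA was -0.0261, MTX2 0.116, TIMM9 0.0298 and TOMM40 -0.0673.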
